A study of Mus musculus with 24 samples.

Results

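The Hox genes encode homeodomain transcription factors, and in the mouse they lie in 4 clusters, Hoxa on chromosome 6, Hoxb on chromosome 11, Hoxc on chromosome 15 and Hoxd on chromosome 2. The Cdx genes encode related homeodomain factors and lie outside the clusters, Cdx1 on chromosome 18, Cdx2 on chromosome 5 and Cdx4 on chromosome X. Every array probe whose symbol was Hox followed by a cluster letter and a number, or Cdx1, Cdx2 or Cdx4, was taken. This gave 42 genes and 55 probes, of 18120 symbols and 25697 probes in all. The 39 Hox genes were 11 of Hoxa, 10 of Hoxb, 9 of Hoxc and 9 of Hoxd, which are all that the RefSeq table of GRCm38.p6 lists. RNA came from day 6 embryoid bodies, the aggregates in which mouse embryonic stem cells differentiate in culture, made from the Ainv15 line with a doxycycline-inducible ICN1. ICN1 is the intracellular domain of the receptor Notch1, which acts in the nucleus without ligand. The non-induced groups carried the same transgene and were not induced, and the induced groups had ICN1 switched on from day 3 to day 5. Each was sorted into 4 fractions, which the labels call CD41 sp, VE sp, DP and DN, giving 8 groups of 3 arrays, 24 arrays in all. All arrays come from 1 engineered line in culture, and no arm with doxycycline but without ICN1 is among the samples used here, so the drug and the transgene cannot be told apart. The labels do not say whether replicates were separate cultures, and p-values therefore cover the spread among the arrays used, part of which can be technical.

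Hox genes of a cluster are switched on along the embryo in the order in which they lie on the chromosome, low numbers early and toward the head, high numbers late and toward the tail. Cdx factors act upstream of this order: they bind Hox regulatory DNA and are needed for posterior Hox expression, and in mouse embryonic stem cells and zebrafish they are also needed for blood formation. In the blood and vessel lineages, Hoxb4 is known for expanding blood stem cells, and Hoxb5 and Hoxa9 for marking or maintaining stem and endothelial cells. Pbx and Meis proteins are cofactors that join Hox proteins on DNA.

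Promoter windows are shown for 4 members that the results below turn on: Hoxb4 for the VE sp fraction, Cdx2 for the DN fraction, and Hoxd4 and Hoxa7 for the response to ICN1 in DN. They are RefSeq windows on GRCm38.p6, from 250 bases before to 50 after the annotated start, read 5′ to 3′ on the strand of the gene. Capitals mark TTTATG, the core letters to which Cdx proteins bind.
Hoxb4, chr11:96318017-96318316, plus strand: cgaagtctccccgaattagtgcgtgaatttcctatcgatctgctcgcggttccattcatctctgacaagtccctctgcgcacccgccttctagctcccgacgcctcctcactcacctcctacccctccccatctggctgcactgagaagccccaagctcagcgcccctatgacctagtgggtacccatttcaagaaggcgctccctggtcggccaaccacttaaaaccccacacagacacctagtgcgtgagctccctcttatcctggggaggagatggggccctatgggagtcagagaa
Hoxd4, chr2:74721728-74722027, plus strand: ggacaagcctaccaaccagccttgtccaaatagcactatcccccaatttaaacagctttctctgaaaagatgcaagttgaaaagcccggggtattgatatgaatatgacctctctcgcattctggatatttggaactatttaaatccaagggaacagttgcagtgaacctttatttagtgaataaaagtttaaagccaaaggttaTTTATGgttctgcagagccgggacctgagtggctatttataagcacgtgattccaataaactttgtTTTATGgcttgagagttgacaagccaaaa
Hoxa7, chr6:52218524-52218823, minus strand: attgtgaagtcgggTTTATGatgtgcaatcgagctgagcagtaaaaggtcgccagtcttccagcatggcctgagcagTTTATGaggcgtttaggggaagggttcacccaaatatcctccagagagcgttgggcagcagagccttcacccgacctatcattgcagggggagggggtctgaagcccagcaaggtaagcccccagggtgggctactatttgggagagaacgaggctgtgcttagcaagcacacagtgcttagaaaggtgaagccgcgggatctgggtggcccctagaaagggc
Cdx2, chr5:147307200-147307499, minus strand: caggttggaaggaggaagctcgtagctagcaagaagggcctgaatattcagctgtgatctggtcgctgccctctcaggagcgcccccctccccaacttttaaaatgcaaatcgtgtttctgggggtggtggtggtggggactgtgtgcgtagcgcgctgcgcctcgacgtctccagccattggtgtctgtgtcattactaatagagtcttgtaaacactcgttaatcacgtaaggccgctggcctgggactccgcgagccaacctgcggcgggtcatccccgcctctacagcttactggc
In the Hoxd4 window TTTATG begins at -45 and at 22, counted from the first transcribed base as 1, and in the Hoxa7 window at -236 and at -173. The Hoxb4 and Cdx2 windows hold none. Both strands were searched for 3 motifs, which can overlap each other only at their ends. Besides TTTATG these were the core letters bound by RBPJ, the DNA-binding partner of ICN1, which are TGGGAA, and a site for a Pbx protein paired with a Hox protein, which is TGATTNAT. The table gave 26 windows for 24 of the 42 genes. TTTATG was in 5 of these 26 (19.2%) and in 11.9% of all 32851 windows. TGGGAA was in 5 of 26 (19.2%) and in 25.6% of all windows, and none of the 4 windows printed above holds it. TGATTNAT was in 2 of 26 (7.69%), those of Hoxa2 and Hoxd11, and in 3.22% of all windows. Median GC content was 57.3% over the 26 windows and 52.7% over all windows. A match is a description of these letters and says nothing of binding in these cells.

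The sort names were checked against their own genes. Itga2b, which encodes CD41, had a log2 normalised intensity of 11.10 ± 0.32 (SD, n = 3) in non-induced CD41 sp and 11.37 ± 0.21 in DP. It stood at 9.63 ± 0.41 in VE sp and 8.02 ± 0.14 in DN, where it was still detected on all 3 arrays. Cdh5, which encodes VE-cadherin, stood at 10.47 ± 0.62 in VE sp, at 9.75 ± 0.34 in DP, and was detected on no CD41 sp or DN array. Notch1 did not pass the test for induction in any fraction; in DN the change was 1.09 ± 0.32 (SE, limma adjusted p = 0.179). Whether its probe lies in the part of Notch1 that the transgene holds is not given. Mean raw intensity ran from 165 to 656 over the 24 arrays, and a detection p under 0.05 was reached by 41.8% to 51.3% of all probes. Arrays with a mean under 300 were non-induced VE sp replicate 3 (165), induced DP replicate 2 (198), induced CD41 sp replicate 2 (238) and induced VE sp replicate 2 (271). The number of arrays limits the precision.

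A member was tested if one of its probes was detected on all 3 arrays of at least 1 group, and 21 of the 42 genes were. Among them were Cdx1 and Cdx2, Hoxa2, Hoxa7 and Hoxa13, Hoxb2 to Hoxb7, Hoxc6, Hoxc9 and Hoxc10, and Hoxd1, Hoxd3, Hoxd4, Hoxd8, Hoxd9 and Hoxd10. The tested genes are not all members: a gene that passed only through a group where it is high had to differ between groups. By cluster, 4 of 11 Hoxa, 6 of 10 Hoxb, 3 of 9 Hoxc and 6 of 9 Hoxd genes passed. Of the 21 others, 13 were detected on no array: Hoxa3, Hoxa4, Hoxa6, Hoxa10, Hoxa11, Hoxb8, Hoxb13, Hoxc5, Hoxc8, Hoxc11, Hoxc12, Hoxd11 and Hoxd12. A further 8 were detected on scattered arrays, from 10 of 24 for Hoxc4 and 8 for Hoxa5 to 1 each for Cdx4, Hoxb9, Hoxc13 and Hoxd13. Hoxb1, the hindbrain gene at the head end of its cluster, was detected on 4 arrays, all of them DN. Of the tail-end genes at positions 11 to 13, Hoxa13 passed, Hoxc13 and Hoxd13 were each detected on 1 array, and the others on none. A probe that is not detected may also be insensitive, so a missing signal does not show that the gene was off.

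The number of member genes detected on an array differed by fraction. It was 6 to 11 in non-induced CD41 sp, 17 to 23 in VE sp, 9 to 17 in DP and 18 to 21 in DN. With induction it was 7 to 9, 14 to 20, 8 to 13 and 21 to 26. CD41 sp arrays lay below all VE sp and DN arrays in both conditions.

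**Figure D1:**
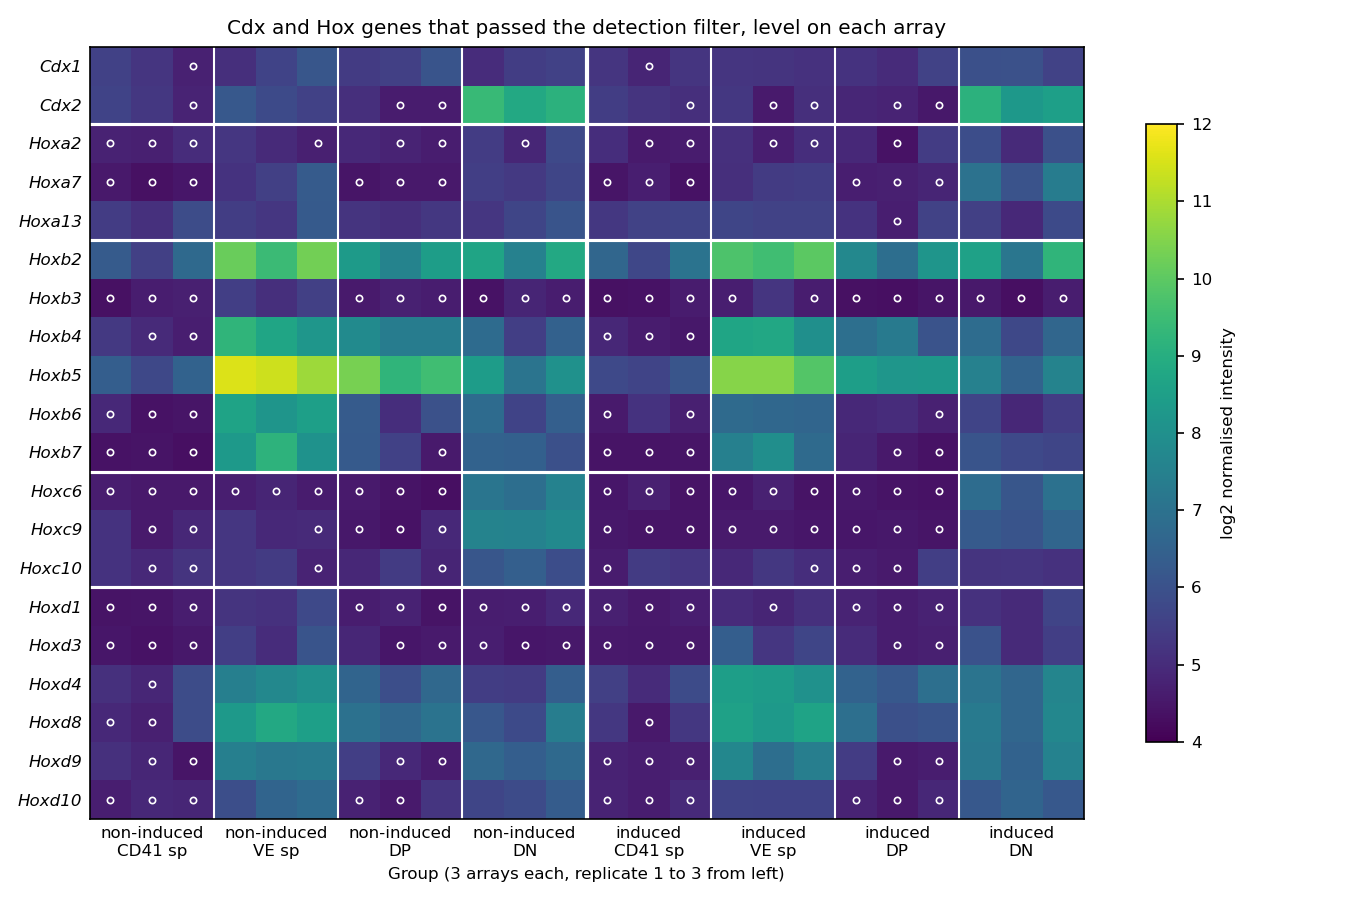
Level of 20 members that passed the detection filter on each of the 24 arrays, as log2 normalised intensity (colour); open circles mark arrays on which the probe was not detected. Hoxb2, Hoxb4 to Hoxb7, Hoxd4, Hoxd8 and Hoxd9 are brightest in VE sp, and Cdx2, Hoxc6 and Hoxc9 in DN. Hoxb3, Hoxd1 and Hoxd3 are faint in VE sp too, and most rows are dark in CD41 sp. Colours are not comparable between rows, since probes differ.

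Without induction, the middle of the Hoxb cluster was highest in VE sp, intermediate in DP and DN and lowest in CD41 sp. Hoxb5, a marker of long-term blood stem cells in the mouse, was at 11.56, 11.39 and 10.82 in VE sp, 10.35, 9.24 and 9.55 in DP, 8.42, 7.06 and 8.05 in DN and 6.39, 5.73 and 6.52 in CD41 sp. Levels are log2 normalised intensities for replicates 1, 2 and 3. No array of one fraction reached into the next. Hoxb4, the stem cell expansion factor, was at 9.23, 8.70 and 8.21 in VE sp, 7.83, 7.37 and 7.37 in DP, 6.81, 5.48 and 6.50 in DN and 5.32, 4.94 and 4.66 in CD41 sp, where only the first was detected. These groups did not overlap either. In bulk fractions, fewer cells of a type and less RNA per cell cannot be told apart.

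Hoxb6, a gene of the lateral and limb mesoderm, was at 8.63, 8.18 and 8.53 in VE sp, 6.81, 5.60 and 6.41 in DN, 6.31, 5.04 and 5.99 in DP, and on no CD41 sp array detected. Its neighbour Hoxb7 was at 8.32, 9.17 and 8.06 in VE sp, 6.51, 6.46 and 5.95 in DN and 6.27, 5.53 and 4.58 in DP, the last not detected, and was likewise undetected in CD41 sp. For both genes VE sp stood apart from the other fractions, while DN and DP overlapped. Hoxb2, a hindbrain patterning gene, was detected on all 24 arrays, at 10.16, 9.45 and 10.31 in VE sp, 8.68, 7.50 and 8.84 in DN, 8.37, 7.57 and 8.46 in DP and 6.31, 5.50 and 6.73 in CD41 sp. The tested Hoxb3 probe was detected on all 3 VE sp arrays, at 5.49, 5.07 and 5.52, and on no other non-induced array. The other Hoxb3 probes failed the filter and disagreed: one was detected on 2 DN, 2 DP and 1 CD41 sp array and no VE sp array without induction, the other on 2 VE sp arrays.

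Against DN, the tested probes of all 6 Hoxb genes were higher in VE sp (limma, Benjamini-Hochberg adjusted over 9591 genes). The log2 differences from DN were 1.63 ± 0.49 (SE) for Hoxb2 (adjusted p = 0.0165), 2.45 ± 0.37 for Hoxb4 (3.06e-05), 3.41 ± 0.36 for Hoxb5 (1.9e-07), 2.18 ± 0.31 for Hoxb6 (1.17e-05) and 2.22 ± 0.34 for Hoxb7 (4.17e-05). The tested Hoxb3 probe was at least 1.32-fold higher, a lower bound for that probe because it was not above background in DN (adjusted p = 0.00504). A second Hoxb3 probe, chosen where no detection filter is set, gave -0.23 for the same difference (adjusted p = 0.697), so the direction for the gene is uncertain. Between VE sp and CD41 sp the gaps were wider: -5.05 ± 0.36 for Hoxb5 (4.77e-10), -3.79 ± 0.49 for Hoxb2 (2.74e-06) and -3.74 ± 0.37 for Hoxb4 (7.37e-08) in CD41 sp, where Hoxb4 was detected on 1 of 3 arrays. Hoxb6 and Hoxb7 were at least 10.4-fold and 10.98-fold lower in CD41 sp than in VE sp. DP lay between: against VE sp the differences were -3.06 ± 0.34 for Hoxb7, -2.67 ± 0.31 for Hoxb6, -1.84 ± 0.49 for Hoxb2, -1.55 ± 0.36 for Hoxb5 and -1.20 ± 0.37 for Hoxb4. Against DN, DP was higher in Hoxb5 by 1.87 ± 0.36 (0.0004) and in Hoxb4 by 1.26 ± 0.37 (0.0167).

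In the Hoxd cluster, Hoxd4 and Hoxd8 were highest in VE sp, while Hoxd9 and Hoxd10 were high in VE sp and DN. Hoxd8, an anterior trunk gene, was at 8.34, 8.81 and 8.51 in VE sp, 6.97, 6.68 and 7.05 in DP, 6.18, 5.80 and 7.38 in DN and 4.93, 4.71 and 5.85 in CD41 sp, detected there on the last array only. Hoxd4, which patterns the hindbrain and upper neck vertebrae, was at 7.45, 7.72 and 8.02 in VE sp, 6.59, 5.91 and 6.71 in DP, 5.47, 5.40 and 6.38 in DN and 5.11, 4.86 and 5.86 in CD41 sp. VE sp lay above every other fraction for both, and DP and DN overlapped. Hoxd9 and Hoxd10 take part in limb and lower trunk patterning. Hoxd9 was at 7.44, 7.20 and 7.27 in VE sp and 6.71, 6.39 and 6.73 in DN, and no DP or CD41 sp array passed 5.48. Hoxd10 was at 5.93, 6.59 and 6.79 in VE sp and 5.68, 5.83 and 6.34 in DN, so these overlapped.

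Hoxd8 was higher in VE sp than in DN by 2.10 ± 0.37 (adjusted p = 0.000186) and Hoxd4 by 1.98 ± 0.33 (9.09e-05). Hoxd1 and Hoxd3 were detected on all 3 VE sp arrays and no DN array, and were at least 1.33-fold (adjusted p = 0.0169) and 1.48-fold (0.0122) higher. Hoxd9 differed by 0.70 ± 0.29 and Hoxd10 by 0.49 ± 0.23, which passed only with the replicate number as a block (adjusted p = 0.0140 and 0.0394, against 0.0825 and 0.128 without). Here and below, an SE beside a p-value of the block fit is that of the fit without the block, so the 2 do not belong to one test. In CD41 sp, Hoxd9 was lower than in DN, with a difference of -1.80 ± 0.29 (7.2e-05), as was Hoxd8 at -1.29 ± 0.37 (0.0196), and Hoxd10 was at least 1.85-fold lower. Hoxd8 and Hoxd9 were each detected on 1 of 3 CD41 sp arrays. In DP, where Hoxd9 and Hoxd10 were each detected on 1 of 3 arrays, Hoxd9 differed from DN by -1.61 ± 0.29 (0.000183) and Hoxd10 by -1.09 ± 0.23 (0.000948). All 6 tested Hoxd genes were lower in DP than in VE sp, from -2.31 ± 0.29 for Hoxd9 to bounds of 1.31-fold for Hoxd1.

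**Figure D2:**
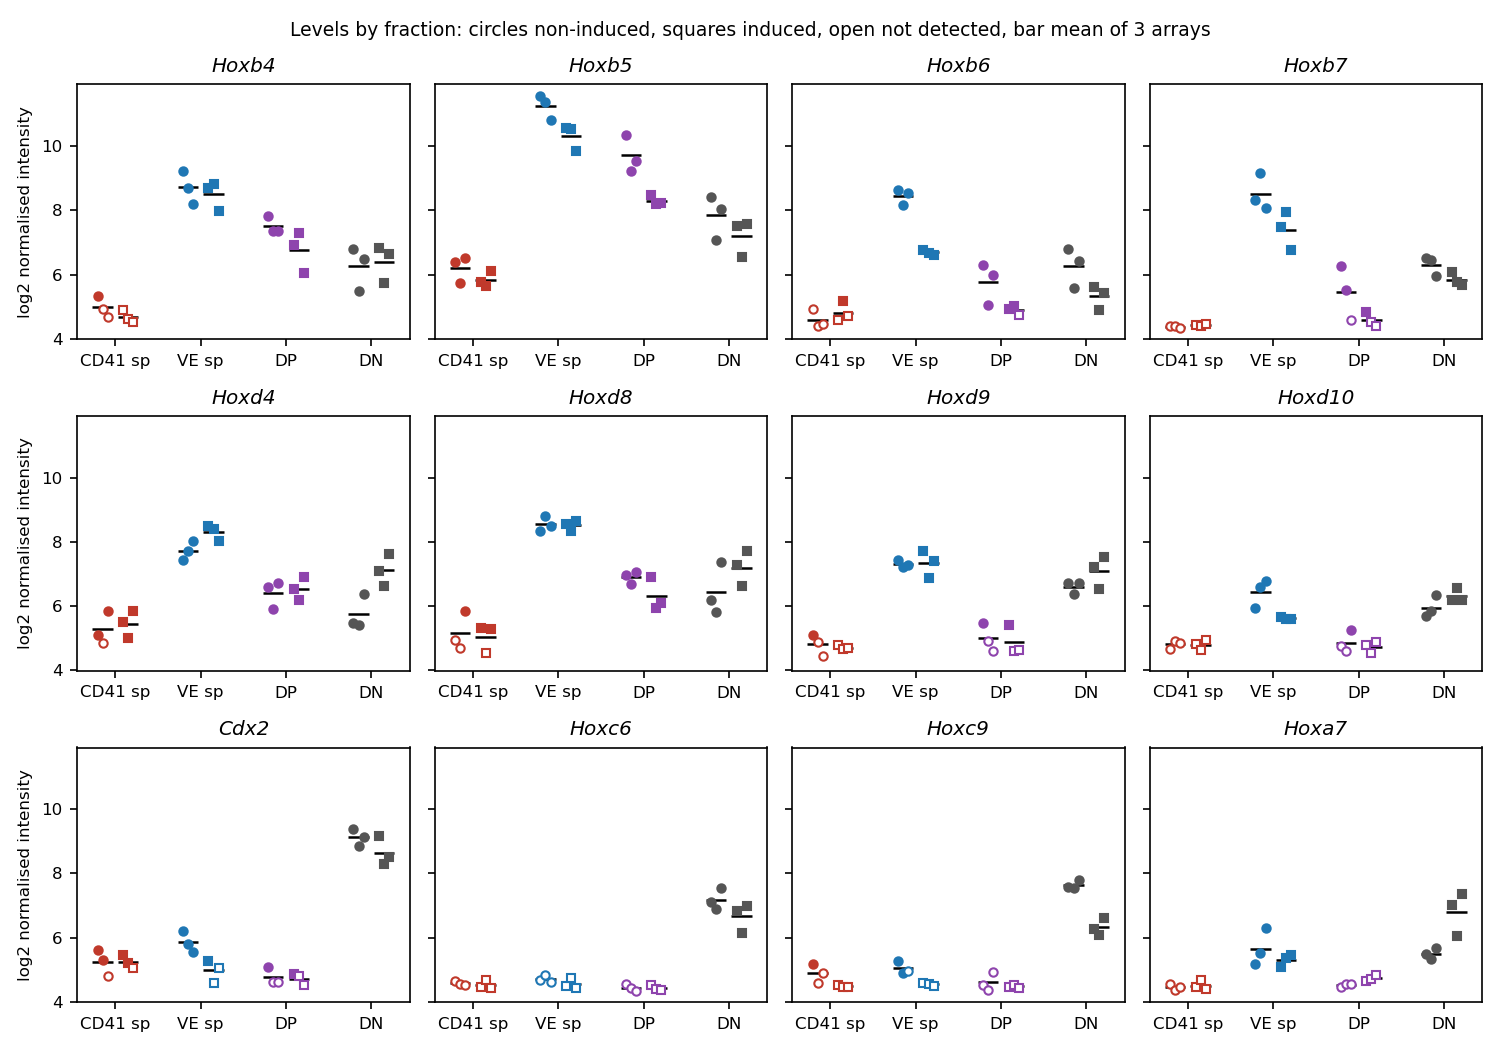
Levels of 12 members by fraction as log2 normalised intensity, 1 point an array; circles are non-induced, squares induced, open symbols not detected, and bars the mean of 3 arrays. The Hoxb and Hoxd genes peak in VE sp, except that Hoxd10 with induction is highest in DN (mean 6.32, against 5.62 in VE sp). Cdx2, Hoxc6 and Hoxc9 stand apart in DN, and Hoxa7 sits at 6.06 to 7.34 on induced DN arrays against 5.32 to 5.66 on non-induced DN arrays.

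The DN fraction had a different set. Cdx2, needed for trunk and tail elongation and for the trophectoderm, was at 9.40, 8.84 and 9.14 in non-induced DN, 6.21, 5.81 and 5.54 in VE sp, 5.62, 5.30 and 4.81 in CD41 sp and 5.09, 4.62 and 4.62 in DP. Each DN array exceeded every array of the other fractions by more than 2 log2 units. Hoxc9, a thoracic gene that also sets motor neuron identity, was at 7.57, 7.56 and 7.79 in DN and at most 5.27 on any other non-induced array. Hoxc6, another thoracic gene, was at 7.11, 6.88 and 7.54 in DN and was detected on no array of the other fractions. Hoxc10, a hindlimb-level gene, was at 6.14, 6.43 and 5.90 in DN and at 4.81 to 5.40 elsewhere without induction.

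Cdx2 differed from DN by -3.27 ± 0.26 in VE sp (adjusted p = 4.05e-09), -3.88 ± 0.26 in CD41 sp (1.05e-09) and -4.35 ± 0.26 in DP (6.06e-11). It was detected on 2 of 3 CD41 sp and 1 of 3 DP arrays, so its levels in these fractions are near the floor. Hoxc9 differed by -2.60 ± 0.19 in VE sp (7.33e-10) and -2.76 ± 0.19 in CD41 sp (9.81e-10), and was at least 6.35-fold lower in DP. Hoxc6 was at least 4.43-fold lower in VE sp, 4.32-fold in CD41 sp and 4.59-fold in DP than in DN. Hoxc10 differed from DN by -0.99 ± 0.25, -1.06 ± 0.25 and -1.12 ± 0.25 in VE sp, CD41 sp and DP, each past the test. These calls on Cdx2, Hoxc6 and Hoxc9 held under all 9 processing alternatives and with any single array left out. Cdx1, expressed in the primitive streak and later the gut, passed no test between non-induced fractions: its mean was 5.17 ± 0.42 (SD, n = 3) in CD41 sp, 5.61 ± 0.53 in VE sp, 5.66 ± 0.36 in DP and 5.34 ± 0.29 in DN.

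Hoxa genes were faint. Hoxa7, an upper trunk gene, was at 5.17, 5.51 and 6.29 in VE sp and 5.47, 5.32 and 5.66 in DN and was detected on no CD41 sp or DP array. It was at least 1.51-fold lower in CD41 sp and 1.61-fold lower in DP than in VE sp, and at least 1.34-fold and 1.43-fold lower than in DN. Hoxa2, a retinoic acid-responsive hindbrain gene, passed no test between non-induced fractions without the block. With it, Hoxa2 was lower in DP than in DN (-0.57 ± 0.29, adjusted p = 0.0460, against 0.185 without). Hoxa13, a gene of the distal limb and hindgut, was at 5.09 to 6.27 on all 12 non-induced arrays and did not differ beyond its spread; its second tested probe passed no test either. Hoxa5 and Hoxa9 failed the filter, with 8 and 2 arrays detected.

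**Figure D3:**
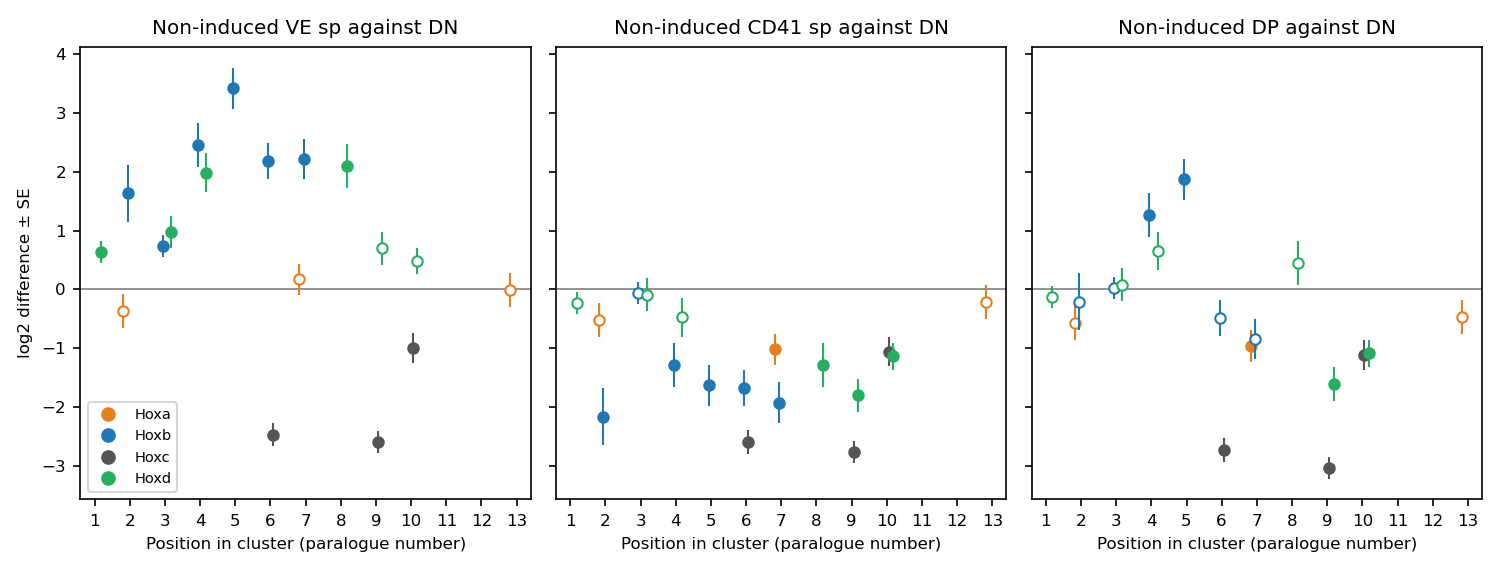
Log2 difference of each non-induced fraction from DN (± SE) for the tested Hox genes, by position number in the cluster; filled points passed the test and colours mark the cluster. In VE sp, all plotted Hoxb and Hoxd genes, at positions 1 to 10, lie above 0 and Hoxc genes at positions 6 to 10 lie below. Values for genes not detected in 1 of the fractions are fitted values, for which the text gives bounds.

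Read against all genes, the share of members called was high in some comparisons. Across the 4 non-induced fractions, 17 of the 21 tested members passed an F test (35.1% of all 9591 genes did), and without the detection filter 16 of all 42 members passed (18.4% of all 18120 genes). For VE sp against DN, 10 members were higher and 4 lower (of all genes 24.7% were called, 12.4% higher and 12.2% lower, and 43.7% with the block), and without the filter 13 of 42 were called (12.6%). For CD41 sp against DN, 13 were lower and none higher (15.7% of all genes, 8.63% lower), and without the filter 13 of 42 (8.01%). For CD41 sp against VE sp, 13 were lower and none higher (28.8% of all genes, 14.6% lower), and without the filter 12 of 42 (14.5%). For DP against VE sp, 14 were lower and none higher (10.2% of all genes, 6.3% lower), and without the filter 11 of 42 (4.94%). For DP against DN, 2 were higher and 7 lower (22.1% of all genes, 11.2% higher and 10.9% lower), and without the filter 9 of 42 (11.3%). With the block 12 passed there (39.3%), adding Hoxd4 as higher (0.65 ± 0.33) and Hoxb7 (-0.84 ± 0.34) and Hoxa2 as lower. For CD41 sp against DP, 7 were lower and none higher (12.3% of all genes, 7.11% lower), and without the filter 5 of 42 (5.97%). The 7 were Hoxb2, Hoxb4, Hoxb5, Hoxb6, Hoxb7, Hoxd4 and Hoxd8. With the block 8 passed there (26.8%), Cdx2 being higher in CD41 sp (0.47 ± 0.26, adjusted p = 0.0373, against 0.322 without). The block gave 13 for CD41 sp against DN (30.3%), 14 for CD41 sp against VE sp (47.6%), adding Cdx2 as lower, and 14 for DP against VE sp (21.5%). The comparisons share groups, so their counts are not independent. Array scaling by the median in place of quantiles moved the median of all genes by 0.25 for DP against VE sp, 0.22 for CD41 sp against VE sp and -0.16 for VE sp against DN, and left 4, 11 and 9 members called.

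For these comparisons only arrays of the compared groups, which are non-induced, were left out singly. Some of the calls were lost when such an array was left out, and the adjusted p without it is given here. Each such fit also has fewer arrays, so a lost call does not show that 1 array drove it. For Hoxb7 in CD41 sp against DP the change was -1.08 with all arrays. It was -1.10 without CD41 sp replicate 2 and -0.68 without DP replicate 1. Hoxb7 was detected on no CD41 sp array and on 2 of 3 DP arrays, so these changes are fitted values against the background. For VE sp against DN, Hoxb2 did not pass without VE sp replicate 1 (0.0502) or 3 (0.0662) or DN replicate 2 (0.104). Hoxd1 did not pass there without VE sp replicate 3 (0.117) or DN replicate 1 (0.0631) or 2 (0.0550), nor Hoxd3 without VE sp replicate 3 (0.0903). For CD41 sp against DN, Hoxd8 did not pass without CD41 sp replicate 1 (0.0763) or 2 (0.121) or DN replicate 3 (0.172). Hoxb4 did not pass there without CD41 sp replicate 2 (0.0627) or 3 (0.0811) or DN replicate 1 (0.126) or 3 (0.0857), nor Hoxa7 without DN replicate 3 (0.0514). For DP against DN, Hoxb4 did not pass without DP replicate 1 (0.0762) or DN replicate 2 (0.124), nor Hoxa7 without DN replicate 3 (0.0511). DP against VE sp was the least stable, with 8 of 14 calls lost without some array. Leaving out VE sp replicate 3, the dimmest array, lost Hoxa7, Hoxb2, Hoxb3, Hoxd1, Hoxd3 and Hoxd4, and leaving out VE sp replicate 1 lost Cdx2, Hoxb2, Hoxb3, Hoxb4 and Hoxd3. Leaving out VE sp replicate 2 or a DP array lost Hoxb2, Hoxb3, Hoxb4, Hoxd1, Hoxd3 or Hoxd4 in turn, and the highest of these p-values was 0.256, for Hoxd3 without VE sp replicate 3. For CD41 sp against DP, Hoxb7 did not pass without any one of 5 arrays (up to 0.295, without DP replicate 1), Hoxd4 without any one of 4 (up to 0.140, without CD41 sp replicate 2), Hoxb6 without CD41 sp replicate 2 (0.0542) or DP replicate 1 (0.0942) or 3 (0.0539), and Hoxb2 without CD41 sp replicate 2 (0.0624).

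Other markers moved with the fractions as well. All 12 endothelial markers were higher in VE sp and in DP than in DN; their summed intensity was 27524 to 40993 over the VE sp arrays, 14605 to 16553 in DP, 1167 to 1610 in CD41 sp and 425 to 489 in DN, where 4 of the 12, Cdh5 among them, were detected on no array. Erythroid markers, 10 tested, summed to 98897 to 120677 in CD41 sp and 95286 to 137585 in DN, against 9492 to 21482 in DP and 4573 to 6707 in VE sp. Of 7 epithelial and endodermal markers 6 were lower in VE sp than in DN and 1, Sox17, was higher, and all 6 pluripotency markers were lower. Of 13 megakaryocyte and blood progenitor markers 12 were higher in CD41 sp and in DP than in DN, and 4 were higher and 2 lower in VE sp. Of 9 mesenchymal markers 6 were lower in VE sp than in DN, 7 in CD41 sp and 9 in DP. The part of these other cell types in the Hox and Cdx levels was not tested.

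After induction of ICN1, 16 of the 21 tested members passed the F test over the induced fractions (38.2% of all genes), and 17 of 42 without the filter (20.3%). Hoxb5 was at 10.56, 10.54 and 9.86 in induced VE sp and at most 6.11 in CD41 sp. Cdx2 was at 9.15, 8.28 and 8.51 in induced DN and at most 5.46 on the other induced arrays.

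In VE sp, Hoxb6 was lower with induction. Its level was 8.63, 8.18 and 8.53 without and 6.78, 6.69 and 6.61 with ICN1, with no overlap between groups. The change was -1.75 ± 0.31 (SE, limma adjusted p = 0.00346), and the differences within replicates 1, 2 and 3 were -1.85, -1.50 and -1.91. It was 1 of 21 tested members to pass (1.12% of all genes did, 0.156% as lower), and 1 of 42 without the filter (0.602%). Leaving out any single array kept the call (adjusted p up to 0.0227). Leaving out all arrays of 1 replicate number kept it in 1 of 3 fits (adjusted p up to 0.192). Without the 4 arrays of mean raw intensity under 300, an alternative chosen after seeing the data, the change was -1.71 at adjusted p = 0.0666, with median scaling -1.45 at 0.363, and in the authors' processed values -1.39 at 0.317. With the replicate number as a block, 4 members were lower: Hoxb6 (adjusted p = 0.000316), its neighbour Hoxb7 with a change of -1.12 ± 0.34 (0.0179), Hoxd10 with -0.82 ± 0.23 (0.0122) and Cdx2 with -0.87 ± 0.26 (0.00291). In that fit 4.33% of all genes passed, 1.2% as lower. Cdx2 was detected on only 1 of 3 induced VE sp arrays, so its change runs into the background and its size is not measured. Hoxb7 stood at 8.32, 9.17 and 8.06 without and 7.49, 7.94 and 6.76 with induction. Hoxb4 stood at 8.69, 8.81 and 7.99 with induction, overlapping its levels without, and did not pass (-0.22 ± 0.37). No gene of the 12 lists of cell type markers and related pathways passed in VE sp without the block, and the endothelial sum was 34966 to 41889 on the induced VE sp arrays.

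In DN, members moved both ways. Hoxa7 was at 5.47, 5.32 and 5.66 without and 7.02, 6.06 and 7.34 with induction, without overlap. It rose by 1.32 ± 0.27 (adjusted p = 0.0134), and the differences within replicates were 1.54, 0.73 and 1.68. Hoxd4 was at 5.47, 5.40 and 6.38 without and 7.08, 6.63 and 7.63 with induction, again without overlap. It rose by 1.37 ± 0.33 (0.0486), by 1.61, 1.23 and 1.25 within replicates. Hoxc9 went the other way, from 7.57, 7.56 and 7.79 to 6.26, 6.08 and 6.61. It fell by 1.32 on the log2 scale (SE 0.19, adjusted p = 0.00031), and the differences within replicates were -1.31, -1.48 and -1.18. These were 3 of 21 tested members (0.97% of all genes called, 0.772% higher and 0.198% lower), and 2 of 42 without the filter, where Hoxd4 did not pass (0.508%).

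The Hoxa7 call was lost without non-induced DN replicate 1 (adjusted p = 0.0550) or 2 (0.0702) and without induced DN replicate 1 (0.0819) or 3 (0.115), with changes of 1.05 to 1.31 in these fits. The Hoxd4 call was lost without the same 4 arrays in turn (adjusted p = 0.249, 0.244, 0.139 and 0.290) and under 7 of 9 processing alternatives. Hoxc9 kept its call whichever single array was left out (adjusted p up to 0.00377). With all arrays of 1 replicate number left out, Hoxc9 kept it in 2 of 3 fits (adjusted p up to 0.108). Hoxa7 kept its call in 1 of these 3 (up to 0.704), and Hoxd4 in none. None of the 3 passed in the authors' processed values, where the changes were 0.86, 0.94 and -0.98 in the same order. Medians of those values differed between replicate sets, at 78.7, 59.9 and 66.9. Whether this offset raised the p-values was not tested, so a call lost there does not show an unstable change. With the replicate number as a block 6 members passed (4.09% of all genes, 2.42% higher and 1.67% lower). Hoxa7 (adjusted p = 0.00224), Hoxd4 (0.000821) and Hoxc9 (2.68e-05) were among them. Besides these, Hoxb6 (-0.95 ± 0.31, adjusted p = 0.0406) and Hoxc10 (-0.96 ± 0.25, 0.0226) were lower and Hoxd3 (0.0169) was higher. Hoxd3 was detected on all 3 induced and no non-induced DN array and was at least 1.44-fold higher.

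A second Hoxc10 probe passed without the block. It was detected on 3 of 24 arrays, all non-induced DN, at 6.28, 6.71 and 6.18, and on induced DN it was at 4.68, 4.67 and 5.01, not detected. It was at least 2.83-fold lower with induction in DN (adjusted p = 6.48e-06, over all probes), and at least 2.51-fold, 2.58-fold and 2.67-fold lower in non-induced CD41 sp, VE sp and DP than in DN. The first probe was at 6.14, 6.43 and 5.90 without and 5.21, 5.24 and 5.13 with induction, without overlap, and did not pass without the block (adjusted p = 0.0808). The positions of the 2 probes on the transcript are not given. Hoxc6, which lies nearer the head end of the cluster, was at 7.11, 6.88 and 7.54 without and 6.84, 6.15 and 6.99 with induction, overlapping (-0.52 ± 0.20, adjusted p = 0.503). Cdx2 in DN did not pass (-0.48 ± 0.26).

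Other cell markers changed in DN too. Of 7 tested epithelial and endodermal markers 2 were lower, Ttr with a change of -3.04 ± 0.50 and Apoa1 with -1.99 ± 0.27, both made by yolk sac endoderm, and their list's sum ran from 4996 to 8309 without and 3350 to 5983 with induction. Of 12 endothelial markers Esam1 rose, by 2.01 ± 0.38, with sums of 425 to 489 and 468 to 956. Nes, of 2 tested neural markers, rose by 1.42 ± 0.27. No marker of the mesenchymal, erythroid, pluripotency or blood progenitor lists passed. Whether a shift in the cells of the DN gate bears on Hoxa7, Hoxd4 and Hoxc9 was not tested.

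In CD41 sp none of the 21 tested members passed for induction in limma (0.0938% of all genes did), and 1 had an unadjusted p under 0.05. None passed with the block (0.918%) or, of 42, without the filter (0.0717%). In DP none passed in limma either (0.146%, and 0.0828% without the filter), and 3 had an unadjusted p under 0.05. With the block Hoxb5 was lower in DP, with a change of -1.40 ± 0.36 (adjusted p = 0.0141, against 0.157 without; in that fit 1.63% of all genes passed, 0.594% as lower). Its levels were 10.35, 9.24 and 9.55 without and 8.49, 8.21 and 8.23 with induction, without overlap. Averaged over the 4 fractions, 3 members were lower with ICN1 and none higher (3.02% of all genes, 0.959% lower), and 3 of 42 without the filter (1.3%): Hoxb5 with a change of -0.84 ± 0.18 (adjusted p = 0.00864), Hoxb6 with -0.84 ± 0.15 (0.00224) and Hoxc9 with -0.59 ± 0.09 (0.000678). The Hoxb5 and Hoxb6 calls were lost with median scaling (adjusted p = 0.393 and 0.207) and in the authors' processed values (0.434 and 0.332), and the Hoxc9 call in the authors' values (0.320). Hoxc9 was detected on all arrays only in DN, and Hoxb6 on no non-induced CD41 sp array. The averages of these genes are thus not falls measured in every fraction. With the block 7 passed (12.8% of all genes, 7.09% higher and 5.72% lower), adding Cdx2 (-0.35 ± 0.13) and Hoxb7 (-0.60 ± 0.17) on the lower side and Hoxd3 (0.35 ± 0.14) and Hoxd4 (0.56 ± 0.16) on the higher. By cluster, the changes of the 6 tested Hoxb genes ran from -1.75 to -0.22 in VE sp, from -1.40 to -0.26 in DP, from -0.95 to 0.14 in DN and from -0.37 to 0.29 in CD41 sp. Those of the 6 tested Hoxd genes ran from -0.82 to 0.58 in VE sp, from -0.59 to 0.14 in DP, from 0.37 to 1.37 in DN and from -0.12 to 0.17 in CD41 sp. Without the block 1 Hoxb gene passed in VE sp and 1 Hoxd gene in DN, and none of these clusters in the other fractions.

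Whether the response differed among fractions was tested directly. Without the block no member passed this F test (limma, 0.177% of all genes, and 0.138% without the filter), though 7 had an unadjusted p under 0.05. With the block 3 passed (2.14% of all genes): Hoxc9 (adjusted p = 0.0190), Hoxb6 (0.0245) and Hoxa7 (0.0316). In part of the fractions these genes lay at background, where neither a fall nor a rise that stays within the background can be measured. No non-induced CD41 sp array detected Hoxb6, and no DP array of either condition detected Hoxc9. Hoxa7 was detected on no CD41 sp or DP array of either condition. Part of each difference may thus come from the floor, and its share was not tested. Where Hoxb6 was measured, the change was -1.75 in VE sp, -0.88 in DP and -0.95 in DN. Hoxc9 changed by -1.32 in DN and was detected with induction on no array of another fraction. Hoxa7 changed by 1.32 in DN and by -0.36 in VE sp. The VE sp value rests on 1 array, non-induced VE sp replicate 3, the dimmest of all: the differences within replicates were -0.10, -0.14 and -0.84, and without that array the change was -0.04.

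**Figure D4:**
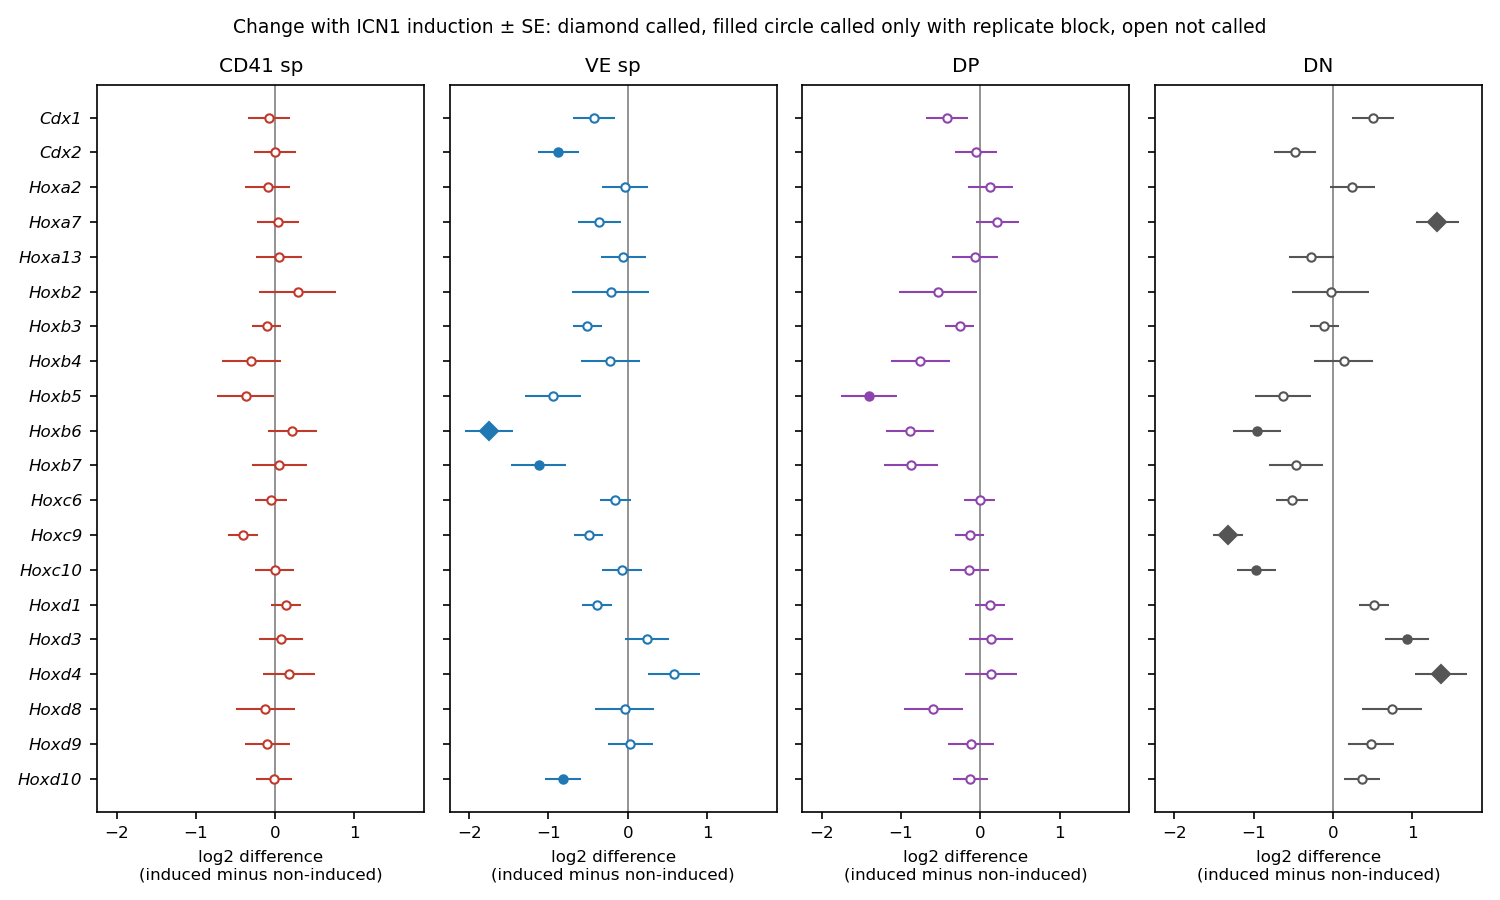
Log2 change with ICN1 induction (induced minus non-induced, ± SE) for 20 tested members in each fraction; diamonds passed the test, filled circles passed only with the replicate block, open circles did not pass. No point passed in CD41 sp. Changes of Hoxb5 to Hoxb7 are negative in VE sp, DP and DN alike, and DN has called points on both sides of 0.

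Genes that act beside the Hox and Cdx genes were taken from lists. Of 15 tested genes of axial elongation and posterior signalling, 11 were lower in CD41 sp, 8 in VE sp and 9 in DP than in DN, and none was higher. T, the mesoderm factor of the primitive streak, Sp5, a Wnt target, and Fgf8, the streak growth factor, were detected on all 3 DN arrays and on no CD41 sp or DP array. Evx1, which lies at the tail end of the Hoxa cluster, differed from DN by -2.69 ± 0.24 in CD41 sp, -2.58 ± 0.24 in DP and -1.20 ± 0.24 in VE sp. Wnt5a, a posterior Wnt ligand, differed by -3.20 ± 0.30 in VE sp and -3.30 ± 0.30 in DP. With induction in DN, 1 of the 15 was lower: Mesp1, an early mesoderm factor, with a change of -1.37 ± 0.24 (adjusted p = 0.00326).

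Of 6 tested Hox cofactors, Meis1 was higher than in DN by 2.69 ± 0.34 in CD41 sp, 2.29 ± 0.34 in DP and 1.43 ± 0.34 in VE sp. With induction Meis1 rose by 1.46 ± 0.34 in DN (adjusted p = 0.0372) and by 0.82 ± 0.17 on average (0.00757), and in VE sp by 1.33 ± 0.34 with the block only (0.0228). Pknox2 was lower in VE sp than in DN (-1.06 ± 0.27) and was not detected in CD41 sp or DP. Of 7 tested genes of the retinoid pathway none passed for induction without the block. Against DN 1 of the 7 was higher in VE sp, 1 was higher and 1 lower in DP, and 1 was lower in CD41 sp. With the block 1 was higher and 2 lower in VE sp, 2 higher and 2 lower in DP, and 2 lower in CD41 sp. Rarg, a retinoic acid receptor, was higher than in DN by 0.70 ± 0.21 in VE sp and 1.14 ± 0.21 in DP. Of 21 tested Polycomb and trithorax genes, which keep Hox clusters silent or open, none passed for induction without the block, and with it 1 was higher in DP and 2 on average. Against DN 1 was higher and 2 lower in VE sp, 2 were lower in DP and none passed in CD41 sp. With the block 3 were higher and 8 lower in VE sp, 1 higher and 3 lower in DP, and 1 higher and 3 lower in CD41 sp. Ring1 differed by -1.04 ± 0.23 in VE sp and -0.89 ± 0.23 in DP.

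Of 6 tested genes that flank the Hox clusters, Skap2, next to the head end of Hoxa, was higher than in DN by 2.23 ± 0.27 in DP, 1.57 ± 0.27 in CD41 sp and 1.28 ± 0.27 in VE sp. Snx10, its neighbour, was higher in VE sp by 0.85 ± 0.30. Evx1 went the other way, as given above, and none of the 6 passed for induction in any fraction without the block.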

How the data were processed

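The files hold, per the file headers, an average signal intensity and a detection p-value for each probe of an Illumina mouse array, 8 arrays to a replicate set, not normalised. The authors deposited a further table of processed intensity values for each set, with a method that the sources used here do not give; these correlated with the raw log2 signals at r = 0.991 to 1.00 across probes and their medians differed by set (78.7, 59.9 and 66.9), so they were used as an alternative only. Detection p-values came in steps of 1 in 798. Symbols are those of the array's design.

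Background was corrected with neqc of limma 3.58.1 (R 4.3.3), with control parameters inferred from the detection p-values, an offset of 16 and quantile normalisation. A probe had to be detected at p under 0.05 on each of the 3 arrays of some group, and the probe of highest mean stood for its gene, leaving 9591 genes. A linear model of 8 group means was fitted with lmFit and eBayes (16 residual degrees of freedom, 14 with the replicate number as a block), and genes with a Benjamini-Hochberg adjusted p under 0.05 were called. All SEs, those in the figures among them, come from the fit without the block. Where a group was not above background, the fold is a lower bound, taken on each array against the probe's own signal or the lowest signal of any detected probe, whichever was higher. By rule every member is accounted for, members called in a comparison are given with values (the 10 of largest change where there were more), and up to 4 called genes of each other list are named. The members and lists were chosen with earlier results of these data known. Same-numbered arrays of different groups deviated together, with r = 0.288 to 0.773 over 84 pairs. Over 168 pairs of different number r was -0.623 to 0.0977. Deviations were taken from the mean of each group of 3 arrays, which by itself makes r between different numbers negative. The second range therefore adds nothing to the first. The numbers, which the labels give, thus mark arrays that deviate together. Each number is also its own set of 8 arrays, so paired samples and a shared array set cannot be told apart. The main fit leaves this grouping out, and the fit with the block uses it. Tested on simulated data for induction in DN, with 9591 genes of which 200 were changed, the fit recovered 45% of changes of 1 on the log2 scale and 90% of changes of 2, with 12 false calls. Alternatives were the replicate block, no background correction, median scaling, the authors' processed values, no and a stricter detection filter, all probes, array weights and leaving out arrays. One tested member is counted but not reported here by name or plotted. Promoter windows were searched with Python 3.11.15.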

Additional observations from a re-analysis of the deposited data

Results flagged for a closer look

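The response to ICN1 differed among the 4 fractions for 3 members when the replicate number was a block. The adjusted p of this F test in limma was 0.0190 for Hoxc9, 0.0245 for Hoxb6 and 0.0316 for Hoxa7. Without the block none passed. Each lay at background in part of the fractions (Hoxc9 on all DP arrays, Hoxb6 on the non-induced CD41 sp arrays, Hoxa7 on all CD41 sp and DP arrays). Neither a fall nor a rise that stays within the background can be measured there, and the share of the floor in these tests was not tested. For Hoxa7 the 3 replicates moved one way in DN, with a mean change of 1.32, and the other way in VE sp, with a mean change of -0.36. The VE sp value was -0.04 without non-induced VE sp replicate 3, the levels of the groups overlapped, and the pair of fractions was not tested by itself.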

How the results depend on the processing

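Calls between fractions on Cdx2, Hoxc6 and Hoxc9 against DN, and on Hoxb4 to Hoxb7, Hoxd4 and Hoxd8 between VE sp and DN, held under all alternatives and with any single array left out. None of the induction calls within a fraction held under all of them. With the replicate block, 4 members were called for induction in VE sp, 1 in DP, 6 in DN, 7 on average and 3 by fraction. With median scaling the counts were 0 in VE sp, 1 on average, 9 for VE sp against DN, 4 for DP against VE sp and 4 for CD41 sp against DP. In the authors' processed values they were 0 in VE sp, in DN and on average, 5 for CD41 sp against DN, 9 for VE sp against DN, 4 for DP against DN, 5 for DP against VE sp and 2 for CD41 sp against DP. With array weights they were 2 in VE sp, 6 in DN, 7 on average and 2 by fraction, and over all probes 1 by fraction. Without the dim arrays, chosen after seeing the data, they were 0 in VE sp and 8 for DP against VE sp. Without a detection filter another Hoxb3 probe is used, and its differences turned to -0.23 for VE sp against DN, 0.13 for DP against VE sp and 0.38 for CD41 sp against VE sp. The cause of the other shifts was not tested. The authors' processed values differ in median between replicate sets, and whether this bears on their counts was not tested.

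Leaving out arrays or a replicate number gave 0 to 0 calls for induction in CD41 sp and in DP, 0 to 2 in VE sp, 0 to 4 in DN, 0 to 4 on average and 0 to 1 by fraction. It gave 13 to 17 over the non-induced and over the induced fractions, 7 to 13 for CD41 sp against DN, 10 to 14 for VE sp against DN, 6 to 9 for DP against DN, 6 to 13 for DP against VE sp, 12 to 14 for CD41 sp against VE sp and 2 to 6 for CD41 sp against DP. Of 95 results on single genes, the replicate block brought 18 past the threshold and lost none. Members near background could not be resolved by the signal.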
